A study of Mus musculus with 6 samples.

Results

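WNT ligands are secreted, lipid-modified glycoproteins that pass signals between neighbouring cells. A ligand binds a Frizzled receptor, together with LRP5 or LRP6 to stabilise beta-catenin and switch on TCF/LEF target genes, or together with ROR or RYK receptors to drive the beta-catenin-independent branch that steers cell shape and polarity. In the kidney, ligands of the ureteric duct and of the condensing mesenchyme build the nephron, and several are known to return in tubules and interstitium when the adult organ is injured and scars. The 10 ligand genes described here (Wnt2b, Wnt4, Wnt5a, Wnt5b, Wnt6, Wnt7b, Wnt9a, Wnt9b, Wnt10a and Wnt11) were found by gene name among the 33679 genes of the deposited expression table, and each had 1 row.

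The libraries came from kidneys of mice after unilateral ureteral obstruction, in which 1 ureter is blocked and the kidney behind it becomes fibrotic; every group carried the obstruction, and no unobstructed kidney was part of the design. One group lacked Cd248, the gene of endosialin, a transmembrane protein of fibroblasts and pericytes, and the other was wild type. The labels name 3 samples per genotype; this comparison sets the first knockout library against all 3 wild type libraries, and the other knockout samples were not analysed here. The labels do not state the knockout allele, strain, age, sex or day after surgery. They speak of pooled RNA and do not call the replicates separate animals, so p-values describe the spread among these libraries, part or all of which could be technical.

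Levels are in FPKM, fragments scaled by transcript length and by the mapped fragments of the library, a unit that allows levels of different genes to be set side by side. FPKM totals lay between 267394.5 and 304425.7, and between 14535 and 14820 genes reached 1 FPKM in a library; read depth is unknown. Cd248 was listed at 0 in the knockout library and at 8.78 to 9.57 FPKM in the wild type libraries, as labelled. The 10 proximal tubule markers, among them the endocytic receptors Lrp2 and Cubn, were above 0 in all 4 libraries, as were the 10 collecting duct markers and the 12 fibroblast markers. Values above 0 are a weak check of the labelled tissue, since the macrophage and endothelial markers described below met it too. Immunoglobulin genes held 5.98% of the knockout library's FPKM and 0.113% to 0.202% of the wild type libraries'. Wild type replicate 2 stood apart for the ligands: 9 of the 10 were highest there among the wild type libraries, against 29.3% of the 16439 tested genes without ties.

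Most ligands were lower in the knockout library, and Wnt7b was the one whose gap to the wild type libraries was wider than their own range. Of the 10, 6 lay below every wild type library (Wnt4, Wnt5a, Wnt5b, Wnt7b, Wnt9a and Wnt11), 3 lay inside the wild type range (Wnt2b, Wnt9b and Wnt10a) and Wnt6 lay above every one. Wnt6 missed the filter of a mean of 0.5 FPKM over the libraries, which left 9 ligands among 16871 tested genes. None of the 9 passed limma's moderated test with Benjamini-Hochberg adjustment over all tested genes at 0.05, where 122 genes, or 0.723%, passed (0.083% lower and 0.64% higher). That share was smaller in some fits, with 2 of 16695 genes past the threshold once immunoglobulin genes were left out and 45 to 63 of 16871 without 1 wild type library. It was larger where libraries were scaled to the same FPKM total. The ligand count was 0 in every fit. At an unadjusted p under 0.05, 1 of 9 ligands (Wnt7b, lower) and 10.8% of tested genes were counted, 5.63% of tested genes as lower. The 6 of 9 tested ligands below every wild type library stood beside 31.2% of all tested genes, and 28% of tested genes lay above every one. The median difference of the 9 tested ligands was -0.35 on the log2(FPKM + 1) scale, against -0.0064 for all tested genes, and 8 of the 9 differences were negative, as were 51.4% of all. Without wild type replicate 2 the ligand median was -0.17. The count of 6 of 9 ligands below the remaining pair could not change, since replicate 2 was the lowest wild type library for no ligand.

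**Figure D1:**
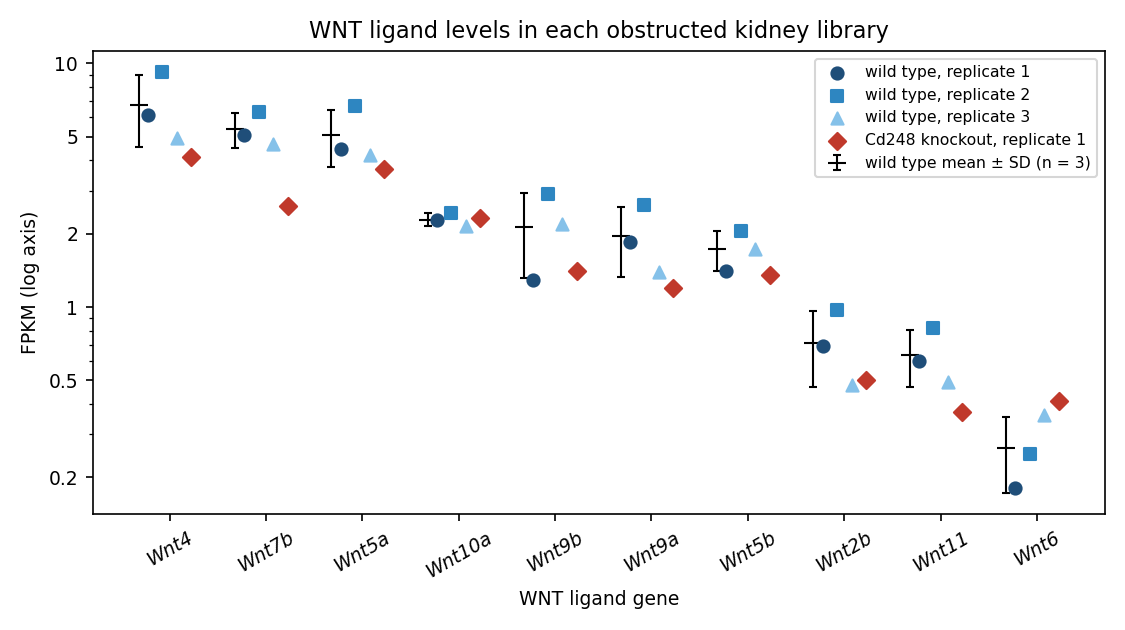
FPKM (log axis) of the 10 WNT ligand genes in each library, ordered by wild type mean; points are single libraries and black bars are the wild type mean ± SD (n = 3). The knockout library lies clearly apart from the wild type libraries for Wnt7b (2.59 against 4.68 to 6.34 FPKM), and wild type replicate 2 is the highest wild type library for every ligand but Wnt6.

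Wnt4, Wnt7b and Wnt5a were the most abundant of the 10 in every library. Their wild type means were 6.76 ± 2.23, 5.37 ± 0.87 and 5.10 ± 1.36 FPKM (SD, n = 3), which placed them above 58.8%, 51.7% and 49.9% of tested genes. The ranges of these 3 overlapped, so their order was not resolved beyond the spread, although Wnt4 was above Wnt7b in 3 of 3 wild type libraries. A second tier, Wnt10a, Wnt9b, Wnt9a and Wnt5b, lay between 1.73 and 2.29 FPKM on average, each overlapping its neighbour in the order and none overlapping the first. Wnt2b (0.71 ± 0.25 FPKM) and Wnt11 (0.64 ± 0.17 FPKM) formed the next pair, whose ranges overlapped, and Wnt6 was the lowest at 0.26 ± 0.091 FPKM. The median SD between wild type libraries on the log2(FPKM + 1) scale was 0.20 over the 10 ligands, Wnt6 included, against 0.11 over all tested genes. The genes were not matched for level.

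Among the ligands of the duct and tubule, Wnt7b showed the largest difference. Wnt7b, which the collecting duct epithelium uses to shape the renal medulla, is on the minus strand of chromosome 15 (mm10, 85535437 to 85582473; ENSMUSG00000022382). It had 2.59 FPKM in the knockout library, against 5.08, 6.34 and 4.68 FPKM in replicates 1, 2 and 3 of the wild type. The groups did not overlap, and the distance from the knockout library to the nearest wild type library, 2.09 FPKM, exceeded the wild type range of 1.66 FPKM. The knockout level was 2.07 times lower than the wild type mean, a difference of -0.82 on the log2(FPKM + 1) scale (SE 0.17, 95% interval -1.29 to -0.35; limma unadjusted p = 0.0078, adjusted p = 0.277). An exact two-sided permutation test of the 4 values gave p = 0.25, the smallest that 1 library against 3 allows. In the authors' deposited table Wnt7b has a fold change of 0.48, a log2 fold change of -1.05 and a q-value of 0.01, and it is the 1 ligand of 10 that the table marks as significant, where 0.781% of all genes carry the mark (0.496% as lower). That fold change equals the knockout level divided by the wild type mean of these libraries (0.483). No source used here names the test behind that mark. The share of marked genes is over all 33679 genes, also those under the filter applied here, unlike the shares of tested genes. A non-coding gene on the opposite strand, AU022754, shares 324 exonic bases with Wnt7b and had 0.48 FPKM in the knockout library, with wild type values of 0.42 to 0.51 FPKM; whether the counting used strand is not given, so reads of the shared part cannot be told apart.

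Wnt4 drives the conversion of mesenchyme into nephron epithelium and is a ligand of injured tubules and of the interstitium (chromosome 4, 137277489 to 137299726, plus strand; ENSMUSG00000036856). It had 4.13 FPKM in the knockout library, against 6.12, 9.24 and 4.93 FPKM in replicates 1, 2 and 3 of the wild type. The knockout library was the lowest, by 0.80 FPKM, while the wild type libraries spanned 4.31 FPKM. The difference was -0.56 (SE 0.33, 95% interval -1.44 to 0.32, adjusted p = 0.610), an interval that includes 0. Without wild type replicate 2 it was -0.34 (adjusted p = 0.834).

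Wnt9b, the ureteric duct signal that induces nephrons (chromosome 11, 103727364 to 103749821, minus strand), had 1.40 FPKM in the knockout library, against 1.29, 2.91 and 2.19 FPKM in replicates 1, 2 and 3 of the wild type. The knockout value lay inside the wild type range, next to wild type replicate 1 (difference -0.35, 95% interval -1.22 to 0.52, adjusted p = 0.736). Its size rested on which wild type library was used, with -0.56 without replicate 1 and -0.17 without replicate 2. Wnt11, made at the tips of the branching ureteric duct (chromosome 7, 98835112 to 98855195, plus strand), had 0.37 FPKM in the knockout library, against wild type values of 0.60, 0.82 and 0.49 FPKM. The knockout library was below all of them by 0.12 FPKM (difference -0.25, 95% interval -0.72 to 0.22, adjusted p = 0.665). A processed pseudogene on the other strand, Gm8398, covers 364 exonic bases of Wnt11 and had 0.01 FPKM in the knockout library, with 0 in the others, so Wnt11 values carry that uncertainty.

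Wnt5a and Wnt5b act mainly through the beta-catenin-independent branch, and neither passed the test. Wnt5a, the main ligand of ROR2 and a product of mesenchymal cells (chromosome 14, 28504750 to 28527448, plus strand; ENSMUSG00000021994), had 3.67 FPKM in the knockout library, against 4.44, 6.66 and 4.2 FPKM in replicates 1, 2 and 3 of the wild type. The knockout library was the lowest, 0.53 FPKM under the nearest wild type library, and wild type replicates 1 and 3 lay closer to it than to replicate 2. The difference was -0.36 (SE 0.26, 95% interval -1.05 to 0.33, adjusted p = 0.668) and -0.19 without wild type replicate 2. The antisense gene Gm2670 shares 358 exonic bases with Wnt5a and had 0.12 FPKM in the knockout library, with wild type values of 0.22 to 0.35 FPKM.

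Wnt5b, the close paralogue of Wnt5a (chromosome 6, 119432531 to 119544347, minus strand), had 1.35 FPKM in the knockout library, against 1.40, 2.06 and 1.73 FPKM in replicates 1, 2 and 3 of the wild type. It counted as below every wild type library by 0.05 FPKM, a fraction of the wild type range of 0.66 FPKM (difference -0.21, 95% interval -0.68 to 0.26, adjusted p = 0.713). Fbxl14, a gene inside the Wnt5b locus on the other strand, shares no exonic base with it.

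The remaining ligands went in different directions. Wnt9a, known from joint development (chromosome 11, 59306928 to 59333552, plus strand), had 1.20 FPKM in the knockout library, against 1.85, 2.62 and 1.39 FPKM in replicates 1, 2 and 3 of the wild type (difference -0.40, 95% interval -1.10 to 0.30, adjusted p = 0.643). The knockout library was lowest by 0.19 FPKM. Wnt2b, which acts with Wnt2 in lung specification (chromosome 3, 104945272 to 104961921, minus strand), had 0.50 FPKM in the knockout library, against wild type values of 0.69, 0.97 and 0.48 FPKM (difference -0.18, 95% interval -0.74 to 0.38, adjusted p = 0.786). Its knockout value sat beside that of wild type replicate 3.

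Wnt6 and Wnt10a are neighbours on the plus strand of chromosome 1 (74771892 to 74785322 and 74791516 to 74804179), 6193 bases apart. Wnt10a, a ligand of tooth, hair and other skin appendages, had 2.33 FPKM in the knockout library, against 2.27, 2.44 and 2.15 FPKM in replicates 1, 2 and 3 of the wild type. These values were nearly level across the 4 libraries, with the knockout library inside the wild type range. The difference was 0.020 (SE 0.11, 95% interval -0.28 to 0.32, adjusted p = 0.964), turning to -0.074 once libraries were scaled to equal FPKM totals. Wnt6, an inducer of epithelial tubules in mesenchyme, had 0.41 FPKM in the knockout library, against wild type values of 0.18, 0.25 and 0.36 FPKM. It was the only ligand of the 10 above every wild type library, by 0.05 FPKM, at levels where the table's 2 decimals are coarse. With no filter on low values its difference was 0.16 (95% interval -0.16 to 0.48, limma adjusted p = 0.682).

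**Figure D2:**
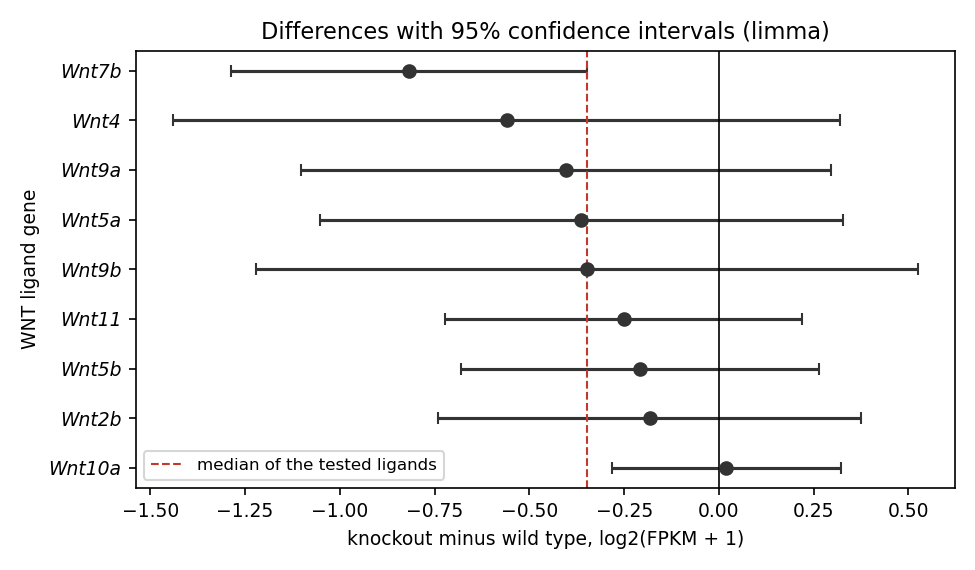
Knockout minus wild type difference on the log2(FPKM + 1) scale for the 9 tested ligands, with 95% confidence intervals from limma; the dashed line is their median, -0.35. Wnt7b has the only interval that excludes 0, and 0 of the 9 passed after adjustment over all tested genes.

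Promoter sequence is shown for some of the ligand genes that were below every wild type library (Wnt9a and Wnt11) and for the one that was above (Wnt6), to set their letters side by side. RefSeq promoter windows (GRCm38.p6, the assembly of mm10), 250 bases before to 50 after a start, matched 7 of the 10 ligands in 10 windows; Wnt5a, Wnt7b and Wnt10a had none in the table used here. The 250 bases before the start are given 5′ to 3′ on the strand of the gene, all plus, with capitals marking a TCF/LEF core (CTTTGA) or a TEAD core (GGAATG) on either strand. The windows are chr11:59306680-59306929, chr7:98834862-98835111 and chr1:74771642-74771891. Not printed are the windows of Wnt4 and Wnt5b, also below every wild type library, and another window of Wnt11 that holds neither core.
Wnt9a: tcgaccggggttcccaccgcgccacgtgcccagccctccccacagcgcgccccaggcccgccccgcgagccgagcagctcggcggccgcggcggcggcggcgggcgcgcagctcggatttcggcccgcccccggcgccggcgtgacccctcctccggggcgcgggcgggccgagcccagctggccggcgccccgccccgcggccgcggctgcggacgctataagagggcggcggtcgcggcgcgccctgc
Wnt11: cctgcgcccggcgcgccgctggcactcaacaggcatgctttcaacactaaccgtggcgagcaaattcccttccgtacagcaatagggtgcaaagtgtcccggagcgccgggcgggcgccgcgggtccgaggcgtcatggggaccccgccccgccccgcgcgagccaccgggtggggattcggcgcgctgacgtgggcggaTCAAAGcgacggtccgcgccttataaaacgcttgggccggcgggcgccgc
Wnt6: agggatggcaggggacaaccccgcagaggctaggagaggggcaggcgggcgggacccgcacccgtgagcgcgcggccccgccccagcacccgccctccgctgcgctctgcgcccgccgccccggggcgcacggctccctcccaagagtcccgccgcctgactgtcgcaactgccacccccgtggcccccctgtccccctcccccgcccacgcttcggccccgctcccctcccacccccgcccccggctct
These stretches are rich in G and C. Over the 10 ligand windows of 300 bases the median was 37 CG dinucleotides and 74.2% G plus C, against 7 and 52.7% over all 32851 windows. The TCF/LEF core, the letters bound by the nuclear partners of beta-catenin, was in 2 of the 10 ligand windows (1 of Wnt11 and 1 of Wnt5b) and in 16% of all windows. The TEAD core, the letters bound by the partners of YAP, was in 1 ligand window (Wnt5b) and in 14.7% of all windows. The motifs do not overlap each other in these windows, and a match of letters is a description of the sequence.

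Summed over the 10 genes, the ligand messenger RNA came to 17.9 FPKM in the knockout library, and the wild type replicates 1, 2 and 3 had 23.9, 34.3 and 22.6 FPKM. The knockout sum was the lowest, 1.5 times below the wild type mean of 26.9 ± 6.41 FPKM (SD, n = 3) and 1.30 times below the mean without wild type replicate 2. An exact two-sided permutation test gave p = 0.5 (smallest possible 0.25), since wild type replicate 2 lay farther from the other libraries than the knockout library did. The make-up of the sum differed too. Wnt7b took 14.4% of it in the knockout library, against 21.2%, 18.5% and 20.7% in the wild type replicates 1, 2 and 3, so its share was below that of each wild type library. Wnt10a took 12.98% in the knockout library, against 9.49%, 7.11% and 9.51%, above each of them. Wnt4 took 23.0%, within the wild type range of 21.8% to 26.9%, and the beta-catenin-independent Wnt5a, Wnt5b and Wnt11 together took 30.03% against 26.9% to 28.4%. In the knockout library Wnt7b ranked behind Wnt5a, as it did in wild type replicate 2 but not in replicates 1 and 3. Shares of 1 sum are bound to each other, and no test was made of them.

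**Figure D3:**
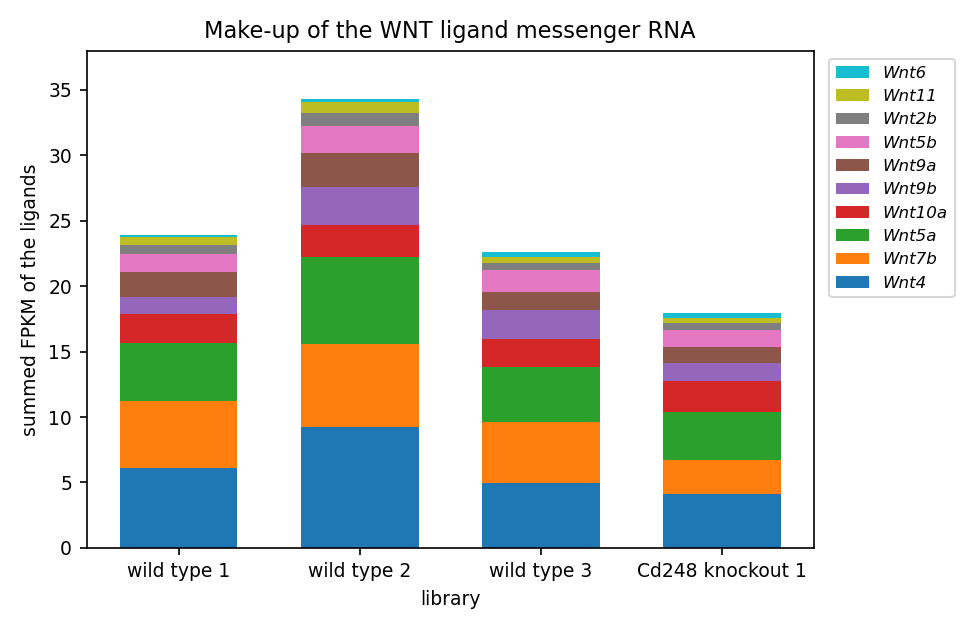
Stacked bars give the summed FPKM of the 10 WNT ligands in each library, 1 colour per gene, on an axis from 0. The knockout bar is the shortest at 17.9 FPKM and the bar of wild type replicate 2 the tallest at 34.3 FPKM, with Wnt4, Wnt7b and Wnt5a as the largest blocks in all 4.

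Leaving out wild type replicate 2 changed no sign among the 9 tested, and could change none for ligands below every wild type library. That replicate was the highest wild type library for all 8 lower ligands, so their differences had to come nearer 0 without it. Without it, the differences of the 8 lower ligands ranged from -0.71 (Wnt7b, adjusted p = 0.551) to -0.076 (Wnt2b). Without wild type replicate 3 they were farther from 0 for 6 of the 8, with Wnt7b at -0.90 and Wnt4 at -0.74. Those 6 were the ones in which replicate 3 was the lowest wild type library, so this too was fixed by the values. Wnt7b kept the largest difference of the 9 with all wild type libraries and without any 1 of them, between -0.90 and -0.71.

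**Figure D4:**
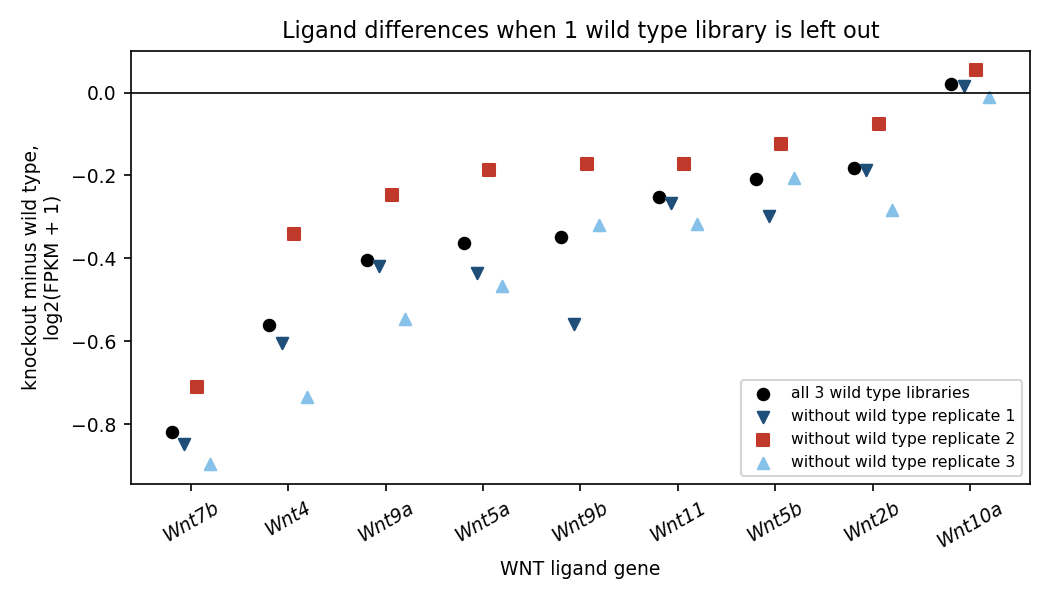
Difference of each tested ligand on the log2(FPKM + 1) scale with all 3 wild type libraries and with each left out in turn. The red squares leave out wild type replicate 2, the highest wild type library for the 8 lower ligands, and so must lie nearest 0 there. Wnt7b stays lowest at -0.71 to -0.90.

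Markers of fibroblasts, endothelium and urothelium were mostly lower in the knockout library, as were most ligands. The part of these cell types in the ligand differences was not tested. In bulk tissue, fewer cells of a type and less RNA per cell cannot be told apart. The 12 fibroblast markers summed to 384 FPKM in the knockout library and to 786 to 999 FPKM in wild type. Below every wild type library were 10 of 12 (31.2% of all tested genes). Wild type replicate 2 was the highest wild type library for 11 of 12, against 29.3% of tested genes without ties. Of the 12, 2 passed the test (Acta2 and Col1a1, against 0.083% of tested genes called lower), and 0 did with immunoglobulin genes left out or without any 1 wild type library. Pdgfra was at 12.7 against 15.8 to 23.1 FPKM. The 10 endothelial markers summed to 126 FPKM against 162 to 204 FPKM, all 10 below every wild type library and 8 highest in wild type replicate 2. Collecting duct principal cell markers went both ways, with 5 of 10 differences negative, 3 members below and 3 above every wild type library. They summed to 159 FPKM in the knockout library, against 128, 159 and 134 FPKM in replicates 1, 2 and 3 of the wild type. Hsd11b2 (57.2 FPKM) and Tfcp2l1 (49.6 FPKM), both above every wild type library, were the largest parts of the knockout sum, and Scnn1g was above as well. Below every wild type library were Aqp4 (0.51 FPKM in the knockout library), Gata3 (3.72 FPKM) and Avpr2 (0.89 FPKM). Aqp2 and Aqp3 lay inside the wild type range. Of the 10 members, 8 were highest in wild type replicate 2. Urothelium markers summed to 26.5 FPKM in the knockout library, against 102, 109 and 31.3 FPKM in replicates 1, 2 and 3 of the wild type, with 8 of 9 tested members below every wild type library and Upk2 listed at 0 in the knockout library. Immediate early genes, which respond to handling of tissue, summed to 192 FPKM against 213 to 311 FPKM, with 11 of 12 below every wild type library. The macrophage sum of the knockout library, 1253 FPKM, lay inside the wild type range of 886 to 1369 FPKM. The plasma cell list summed to 4583 FPKM against 136 to 217 FPKM, with 6 of 9 tested members called higher, against 0.64% of all tested genes. The count was 1 of 8 (Mzb1) with immunoglobulin genes left out and 1 or 2 of 9 without 1 wild type library. In those fits fewer of all tested genes passed as well. Proximal tubule markers had the opposite sign to the ligands, with a median difference of 0.56 and 9 of 10 members higher. Above every wild type library were 3 of the 10 (28% of all tested genes). The proximal tubule sum of the knockout library, 393 FPKM, lay inside the wild type range of 146 to 424 FPKM. Not all lists were highest in wild type replicate 2. It was the highest wild type library for 4 of 9 tested urothelium markers, 3 of 9 plasma cell markers and 6 of 12 immediate early genes. For macrophage and proximal tubule markers the count was 0 of 10 each.

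Of the other WNT ligand genes, 6 had a row, and Wnt7a showed a larger difference than any of the 10. Wnt7a, the closest relative of Wnt7b, had 0.54 FPKM in the knockout library, against 2.01, 2.15 and 2.32 FPKM in replicates 1, 2 and 3 of the wild type. The wild type libraries were tightly grouped and the knockout library was 4.0 times below their mean (difference -1.04, SE 0.12, 95% interval -1.36 to -0.71; limma adjusted p = 0.0815). It did not pass the threshold. Unlike most of the 10, it was highest in wild type replicate 3. Wnt16 was at 0.40 against 0.65 ± 0.19 FPKM (SD, n = 3; adjusted p = 0.697) and Wnt2 at 0.78 against 0.86 ± 0.11 FPKM (adjusted p = 0.903), while Wnt10b, Wnt8b and Wnt3 were below the filter.

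The rest of the pathway was taken from lists chosen with earlier results of these data known. In none of these lists did a gene pass limma's adjusted test. The counts of each list stand beside 31.2% of all tested genes below and 28% above every wild type library. Among 14 tested receptors, 11 were below every wild type library and 0 above, with a median difference of -0.15; Ptk7, a co-receptor of the polarity branch, was at 8.50 against 12.7 ± 0.64 FPKM (SD, n = 3; -0.53, adjusted p = 0.232). Of 9 tested planar polarity genes, 7 were below and 0 above (median -0.17), and Prickle1, a cytoplasmic polarity protein, was at 2.48 against 4.73 ± 0.89 FPKM (-0.71, adjusted p = 0.374). The genes listed for ligand secretion were nearly level, with a median of -0.045 over 8 genes, 4 of them below and 2 above every wild type library. The 2 above were Vps29 and Notum, and Notum acts on WNT already secreted. There Notum, the enzyme that strips the lipid from secreted WNT, was at 1.72 against 0.89 ± 0.40 FPKM (0.55, adjusted p = 0.573), and Vps26a, a part of the retromer that recycles the WNT carrier, at 23.1 against 25.0 ± 1.65 FPKM (adjusted p = 0.740).

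Downstream of the receptors, 9 of 17 tested genes of beta-catenin transduction were below every wild type library and 1 above (31.2% and 28% of all tested genes), with a median of -0.098. Tcf7l1, a TCF repressor, was at 3.40 against 4.69 ± 0.36 FPKM (SD, n = 3; -0.37, adjusted p = 0.410), and Dvl1, a Dishevelled adaptor, at 21.5 against 19.8 ± 1.20 FPKM (adjusted p = 0.726). Of 11 tested feedback and target genes, which include direct readouts such as Axin2 and Nkd1, 8 were below and 2 above, with a median of -0.25. Nkd1, a feedback inhibitor that acts on Dishevelled, had 3.50 FPKM in the knockout library, against wild type values of 5.72, 7.02 and 5.56 FPKM (-0.65, 95% interval -1.06 to -0.24, adjusted p = 0.307). Sp5, a transcription factor induced by beta-catenin, went the other way at 2.36 against 1.72 ± 0.18 FPKM (0.31, adjusted p = 0.504).

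Of the WNT antagonists, 4 of 10 tested were below and 2 above every wild type library, near the 31.2% and 28% of all tested genes. The list holds secreted proteins and also Kremen1, a membrane protein, which was among those below. The list median was -0.11, and -0.0040 without wild type replicate 2. Sfrp1, a soluble Frizzled-like trap, had 20.5 FPKM in the knockout library, with wild type values of 33.83 to 35.05 FPKM (adjusted p = 0.0677), and Sostdc1, an LRP-binding antagonist, at 16.1 against 12.1 ± 0.70 FPKM (SD, n = 3; 0.38, adjusted p = 0.340). Only 3 members of the R-spondin module, which amplifies WNT signals at the receptor, were tested. Lgr4, an R-spondin receptor, was at 21.6 against 18.8 ± 0.60 FPKM (0.19, adjusted p = 0.527) and Rnf43, a ligase that removes Frizzled, at 1.37 against 1.65 ± 0.20 FPKM (adjusted p = 0.720). Lists share members (Lef1, Lgr5, Rnf43, Znrf3 and Notum stand in more than 1), and no list was tested as a whole.

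**Figure D5:**
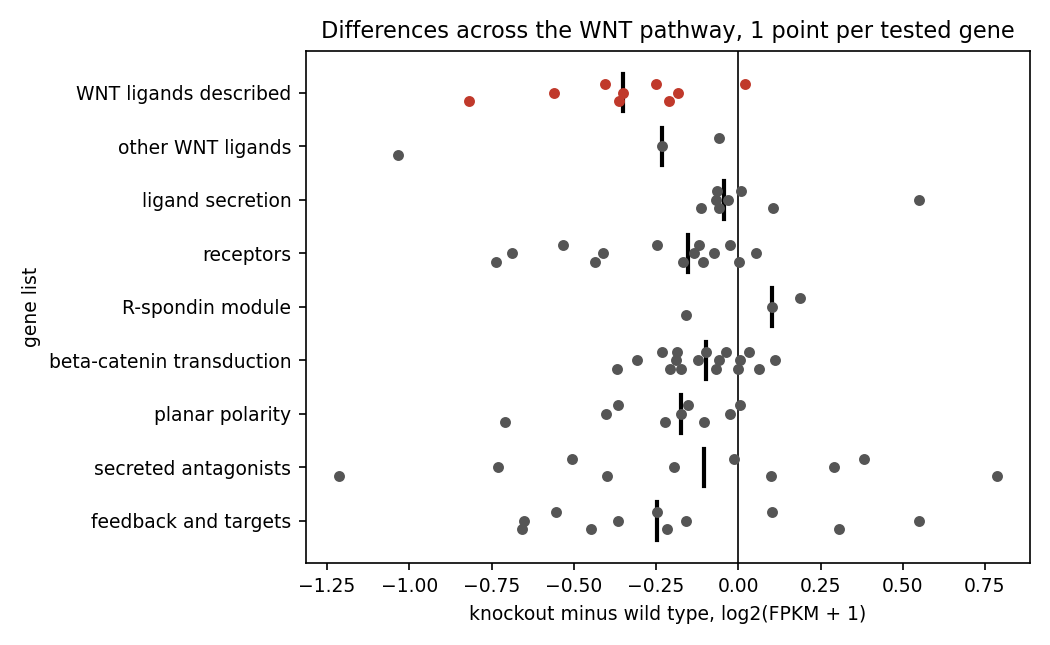
Knockout minus wild type difference on the log2(FPKM + 1) scale for every tested gene of the WNT lists, 1 point per gene, with the list median as a black bar. The median of the ligands (red) is -0.35, those of the receptors and of ligand secretion are -0.15 and -0.045, and Wnt7a is the far-left point among the other ligands at -1.04. The row of secreted antagonists includes Kremen1, a membrane protein.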

How the data were processed

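The authors deposited 1 table, whose headers name its values as FPKM per gene and library; they carry 2 decimals. cutadapt 1.9, FastQC and HISAT2 2.0.4 and the build mm10 are named in the submitters' processing notes, with no role stated. The source of the FPKM values and the annotation behind them are not given in the sources consulted. The authors' ratio (fold change), its log2 and their p-value and q-value columns are in the deposited table, and are quoted only where named. Poly(A) RNA was selected on oligo(dT) beads, per the labels' protocols. There were 0 further columns of per-sample values.

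Genes averaging 0.5 FPKM or more across the 4 libraries were fitted as log2(FPKM + 1) with limma 3.58.1 in R 4.3.3, using its mean-variance trend and two-sided tests, adjusted by the Benjamini-Hochberg method. This scale understates the change of low genes. The fit had 2 residual degrees of freedom, all from wild type, so the lone knockout library takes on their spread by assumption. Gene positions are from GENCODE M21 (GRCm38). The design had assumed 3 libraries per group. Alternatives were the pseudocount (0.1 FPKM), the filter, the scaling, the trend, leaving out immunoglobulin genes, and leaving out each wild type library. The text names all 10 ligands, other WNT ligand genes, and per pathway list the called genes or else the gene with the lowest p on each side of the wild type range. Members and lists were chosen with earlier results of these data known.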

Additional observations from a re-analysis of the deposited data

How the results depend on the processing

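The count of ligands past limma's adjusted threshold was 0 under all 11 alternatives. The median ligand difference kept its negative sign under all of them, between -0.50 (pseudocount of 0.1 FPKM) and -0.17; leaving out 1 wild type library gave -0.42 to -0.17, the smallest without replicate 2. The number of ligands below every wild type library was 5 to 8 (5 of 7 tested with the filter at a mean of 1 FPKM, 8 of 9 with the same FPKM total). That scaling to the same total moved the median of all tested genes from -0.0064 to -0.11. Without 1 wild type library the number could only stay or rise, since fewer wild type values had to be passed. The wild type mean of the summed ligands was 1.30 to 1.65 times the knockout value. The difference of Wnt10a changed sign, to -0.074 with the same FPKM total, -0.014 with the same total without immunoglobulin genes, -0.0058 with quantile normalization and -0.010 without wild type replicate 3 (up to 0.053 without replicate 2); the 8 other tested ligands kept theirs. The R-spondin median became -0.048 with no filter, which added low genes, from 0.10. With a pseudocount of 0.1 FPKM, Wnt7b differed by -1.01 (adjusted p = 0.297), and its adjusted p ranged from 0.201 to 0.551 over the alternatives. No paired analysis was possible because the libraries with values share only 1 replicate number between the genotypes. Read depth is unknown, so counting error at levels under 1 FPKM (Wnt2b, Wnt6 and Wnt11) could not be given.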
